A study of Mus musculus with 2 samples.

Results

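The 33 genes described here mark the replicating and dividing phases of the cell cycle: 15 carry out or accompany DNA replication in S phase, and 18 act in G2 and mitosis. They were taken by symbol from the 31053 genes of the deposited matrices, and all 33 symbols were present. Replication begins when the MCM helicase, loaded on origins in G1, unwinds DNA, while the clamp PCNA holds polymerases on the template and ribonucleotide reductase and thymidylate synthase supply deoxynucleotides. In mitosis, cyclin-dependent kinase with its A and B cyclins drives condensation and spindle assembly, and kinetochore, kinesin and passenger proteins move and part the chromosomes. Genes of the first set are classic E2F targets, and many of the second are controlled through CHR and CCAAT elements. In tumours these genes are used to mark clonally expanding T cells, locally dividing macrophages and the tumour cells themselves.

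The study profiled single leukocytes from B16-F10 melanomas, a pigmented mouse tumour line, with 10x Genomics 3′ v3 droplets. Both groups were female C57BL/6 mice aged 10 weeks that received 200000 B16-F10 cells in 100 µL of saline under the skin of the right flank. One library came from control mice and the other from mice treated with an agonist antibody against OX40, a costimulatory receptor of activated T cells. The cells were sorted as CD45-positive and DAPI-negative per the protocol, although the design text writes DAPI with the opposite sign; antibody dose, schedule and the number of mice pooled were not given in the sources used here. With 1 library per group there is no replicate, so no difference below was tested. Intervals are 95% intervals for counting error only, and they do not cover variation between mice or the clustering of UMIs in few cells.

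The control library held 5989 kept cells and the treated library 6986, from 114026695 and 118059108 UMIs (unique molecular identifiers, 1 per captured RNA molecule). The treated cells were shallower, with a median of 7309 UMIs per deposited barcode against 8927. The libraries shared 18 barcode sequences. Cells were assigned by marker thresholds that used none of the 33 genes, and 6 gates held at least 100 cells in each library. Those were CD8 T cells (1312 control and 1012 treated), Foxp3-positive regulatory T cells (114 and 205), natural killer (NK) cells (198 and 231), mononuclear phagocytes (2115 and 2697), mature migratory dendritic cells (DCs; 219 and 421) and melanoma cells (347 and 548). The melanoma cells were present in spite of the CD45 sort, so their number depends on the sort gate. RNA free in the droplets gives UMIs in cells that do not express a gene: Mlana, a melanocyte gene, was at 2935 CPM in control melanoma cells, at 13.6 to 30.9 CPM in the other 5 of these gates, and at up to 101 CPM in the sparse treated neutrophils. CPM here are UMIs per 1000000 of the summed UMIs of a gate.

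The 250 bases upstream of the RefSeq start were available for 26 of the 33 genes, on build GRCm38.p6, and 5 are printed below because they carry the motifs that set the S phase and mitosis genes apart. Mcm5 lies at chr8:75109259-75109508 on the plus strand. Mcm6 at chr1:128359706-128359955, Top2a at chr11:99024190-99024439, Mki67 at chr7:135716380-135716629 and Ccnb2 at chr9:70421555-70421804 are all on the minus strand and printed 5′ to 3′ in the direction of their genes. Capitals mark every match, on either strand, to the E2F motifs TTTGGCGC, TTTCCCGC, TTTGCCGC and TTTCGCGC, the CHR motif TTTGAA and the motif CCAAT; E2F matches that overlap appear as 1 capital run.
Mcm5: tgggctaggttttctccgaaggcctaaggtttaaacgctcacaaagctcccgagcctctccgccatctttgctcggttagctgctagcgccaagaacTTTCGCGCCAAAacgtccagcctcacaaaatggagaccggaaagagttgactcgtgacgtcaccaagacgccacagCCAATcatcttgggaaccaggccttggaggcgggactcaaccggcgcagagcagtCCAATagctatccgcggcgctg
Mcm6: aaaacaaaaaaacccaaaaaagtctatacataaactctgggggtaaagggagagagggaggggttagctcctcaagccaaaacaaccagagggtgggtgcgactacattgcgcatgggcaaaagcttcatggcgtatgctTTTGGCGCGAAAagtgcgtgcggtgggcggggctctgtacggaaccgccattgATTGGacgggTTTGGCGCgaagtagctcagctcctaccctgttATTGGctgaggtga
Top2a: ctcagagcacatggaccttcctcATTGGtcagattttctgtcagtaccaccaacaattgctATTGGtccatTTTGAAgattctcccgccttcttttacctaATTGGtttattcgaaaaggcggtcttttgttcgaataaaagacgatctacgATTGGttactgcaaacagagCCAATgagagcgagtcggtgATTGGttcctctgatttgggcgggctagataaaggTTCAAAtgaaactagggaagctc
Mki67: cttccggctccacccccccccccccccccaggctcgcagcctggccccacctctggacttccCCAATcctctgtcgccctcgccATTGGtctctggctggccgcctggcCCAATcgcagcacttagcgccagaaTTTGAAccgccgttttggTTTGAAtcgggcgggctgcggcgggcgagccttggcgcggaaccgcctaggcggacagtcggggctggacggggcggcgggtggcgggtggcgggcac
Ccnb2: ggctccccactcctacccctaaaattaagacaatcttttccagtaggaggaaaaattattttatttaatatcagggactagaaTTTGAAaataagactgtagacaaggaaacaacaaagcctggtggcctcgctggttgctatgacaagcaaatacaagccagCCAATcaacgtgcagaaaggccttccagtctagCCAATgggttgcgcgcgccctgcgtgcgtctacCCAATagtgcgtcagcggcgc

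In these windows an E2F motif was found for 4 of the 12 S phase genes with a sequence (33.3%) and for 1 of 14 mitosis genes, Cdk1, against 1.86% of 32851 mouse promoters of that length. A gene with 2 windows counted as matched when either matched, whereas the share of all promoters counts each window. Mcm7 and Uhrf1 matched E2F, and Prc1 matched CHR, in only 1 of 2 windows. The CHR motif was present for 7 of 14 mitosis genes and 1 of 12 S phase genes, Mcm2, against 16.0% of all promoters. CCAAT was common in both sets, in 10 of 12 and 11 of 14, against 33.8% of all promoters. CHR and CCAAT together were found for 7 of 14 mitosis genes and 1 of 12 S phase genes, against 5.55% overall. Top2a had 2 CHR and 6 CCAAT matches, whereas the Birc5, Kif20b and Nusap1 windows held no match to any of the 3 motifs. A match describes letters in the window and is not evidence of binding. Mcm4, Gins2, Hist1h1b, Ccna2, Tpx2, Aurkb and Reep4 had no entry.

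S phase genes were most abundant in CD8 T cells, the mitosis genes had a different order in each library, and most members were lowest in mature migratory DCs. Of the S phase genes, 12 of 15 were highest in CD8 T cells over both libraries and 3 in melanoma cells: Mcm2, a helicase subunit, Rrm2, the small subunit of ribonucleotide reductase, and Uhrf1, which carries DNA methylation through replication. Within each library, CD8 T cells had the highest level of 12 S phase genes in control and 10 in treated cells. Among the 18 mitosis genes in the control library, 9 were highest in regulatory T cells, Ube2c, Mki67 and the mitotic kinesin Kif20b among them, 5 in CD8 T cells and 4 in melanoma cells. In the treated library 10 were highest in melanoma cells, 8 in CD8 T cells and none in regulatory T cells. The 5 control regulatory T cells richest in member UMIs held 38.5% of those in their gate. Ranks of single genes without these cells were not computed. Migratory DCs had the lowest level of all 18 mitosis genes in each library, and of 12 S phase genes over both. Over both libraries, Gins2 and Uhrf1 were lowest in NK cells, and Hist1h1b in melanoma cells.

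**Figure D1:**
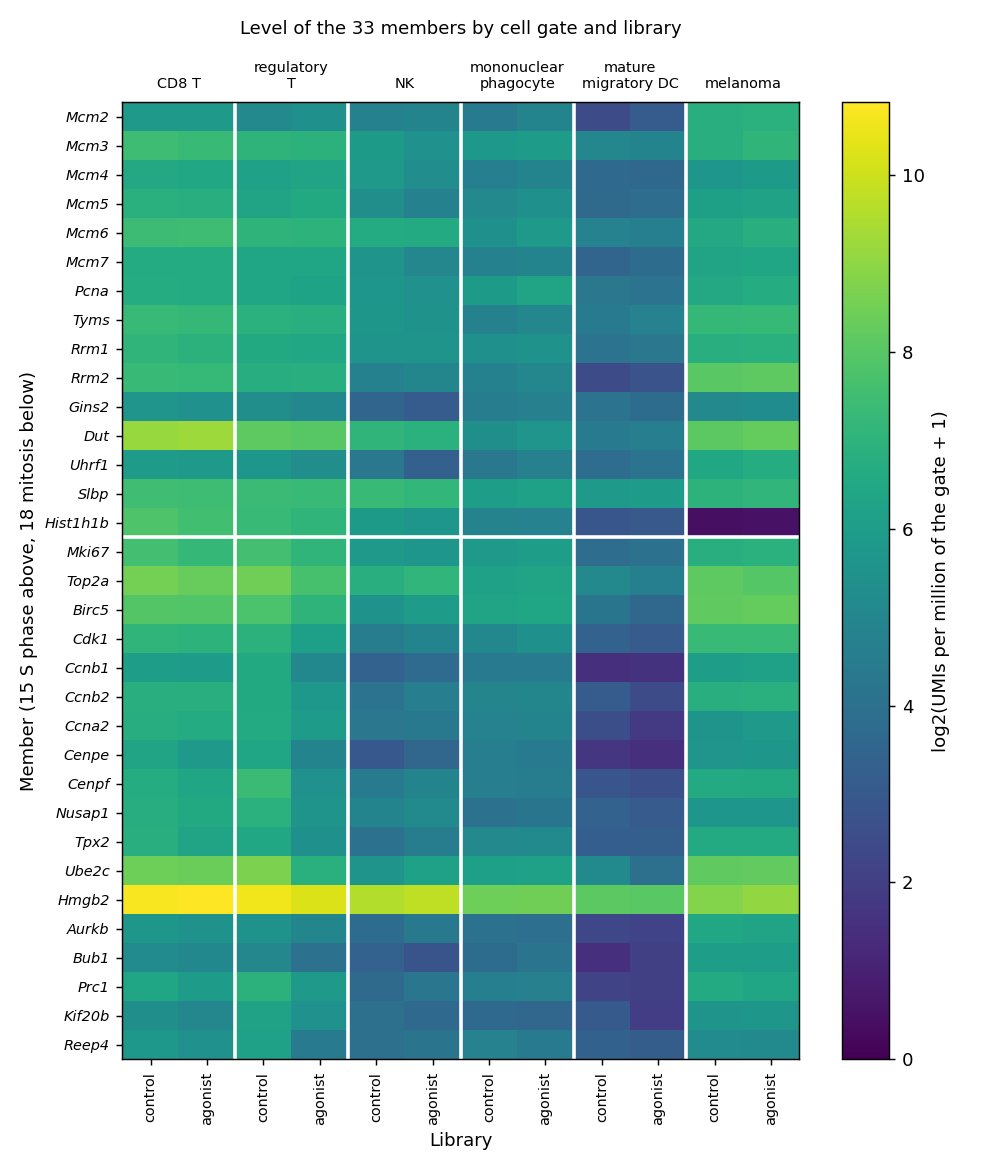
Level of each of the 33 genes in 6 cell gates, 2 libraries each, as log2(CPM + 1) by colour; S phase genes are above the white line and mitosis genes below. CD8 T and melanoma columns are bright for most genes, the control regulatory T column is bright for mitosis genes, migratory DC columns are dark, and Hist1h1b is darkest in melanoma cells.

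Summed over the 15 S phase genes, the level in the control library was 2340 CPM in CD8 T cells, 1638 in melanoma cells, 1629 in regulatory T cells, 883 in NK cells, 530.0 in phagocytes and 270.2 in migratory DCs. Regulatory T and melanoma cells do not differ in this order beyond their counting intervals, 1550 to 1711 and 1623 to 1653 CPM. Mitosis genes needed a separate account of Hmgb2, a chromatin protein that bends DNA. It was at 1655 CPM in control CD8 T cells, and 74.4% of control migratory DCs held at least 1 of its UMIs although the other mitosis genes were rare in them. The other 17 mitosis genes summed to 2238 CPM in control CD8 T cells, 2383 in regulatory T cells, 1971 in melanoma cells, 574 in phagocytes, 466 in NK cells and 176 in migratory DCs. Values for the mitosis genes are therefore given with and without Hmgb2. The first place of control regulatory T cells for the 17 mitosis genes rested on few cells. With the 5 cells richest in member UMIs left out of each gate, the control sums were 2194 CPM in CD8 T cells and 1832 in melanoma cells. Regulatory T cells were then below both, at 1534 CPM. This alternative was added after the values were seen.

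Range over gates differed widely among the members. Slbp, which binds the stem-loop of histone mRNAs, was only 3.07 times higher in its highest gate than in its lowest. Rrm2 spanned 51.2 times, from 5.33 CPM in migratory DCs to 273 CPM in melanoma cells over both libraries. Dut, which hydrolyses dUTP so that it is not built into DNA, spanned 25.8 times, from 22.4 CPM in migratory DCs to 577 CPM in CD8 T cells. Among mitosis genes Cenpe, a kinetochore motor, spanned 35.4 times and Ccnb1, cyclin B1, 34.8 times. Each rests on 11 UMIs in migratory DCs, so the order of these spans is not resolved.

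Hist1h1b, a linker histone gene at chr13:21779883-21780625 whose RNA is made in S phase, stood apart from the other 32 genes in the melanoma cells. It had 10 UMIs in 347 control melanoma cells (0.352 CPM) and 17 UMIs in 548 treated ones (0.449 CPM), while CD8 T cells had 225 and 188 CPM. In the treated melanoma cells, 1 cell held 58.8% of those UMIs. The melanoma gate admitted only cells with at least 5000 UMIs. It was the deepest gate in both libraries, with medians of 77927 and 67846 UMIs per cell. Its other 14 S phase genes were all above 33 CPM in both. Other linker histone genes were looked at after this value was seen, and their levels in melanoma cells varied. Hist1h1c was at 102 CPM in both libraries, Hist1h1e at 59.8 and 55.4 CPM, H1f0 at 236 and 256 CPM, and Hist1h1d at 9.78 and 9.02 CPM. H1fx had 0 UMIs in control melanoma cells and 9 in treated ones, 88.9% of them in 1 cell. Hist1h1a was near 0 there as well, with 0 UMIs in control melanoma cells (counting interval up to 0.130 CPM) and 2 UMIs in treated ones. In CD8 T cells it was at 9.38 and 10.6 CPM.

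Counts per cell show how the members were shared out. After each cell was thinned at random to 2000 UMIs, and leaving out Hmgb2, 27.6% of 1308 control CD8 T cells held over 10 member UMIs and 11.4% held none. Control phagocytes were split the other way, with 52.5% at 0 and 2.77% over 10. A cell is called member-positive below when it held at least 3 member UMIs after thinning; cells under 2000 UMIs were left out, which removed 4 control and 3 treated CD8 T cells. This call is a count of RNA and was not checked against DNA content. Member-positive cells were the larger ones: without Hmgb2, their median was 17577 UMIs against 8948 for the other control CD8 T cells, and 23169 against 8970 for control phagocytes.

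With all 33 genes, the member-positive share was 70.0% in control and 71.3% in treated CD8 T cells (difference 1.23 percentage points, −2.53 to 4.94). It was 59.4% and 68.2% in melanoma cells (8.88, 2.44 to 15.3) and 19.9% and 23.1% in phagocytes (3.23, 0.857 to 5.57). In regulatory T cells it was 43.8% and 52.0% (8.21, −3.28 to 19.3), in NK cells 44.3% and 40.5% (−3.79, −13.2 to 5.67), and in migratory DCs 11.7% and 12.1% (0.340, −5.40 to 5.40). These shares come from 1 random draw of UMIs per cell. Averaged over all possible draws, regulatory T cells were at 49.1% and 50.4%, a difference of only 1.24 percentage points. Migratory DCs were then at 13.9% and 12.7%, with the sign reversed. The order from CD8 T and melanoma cells down to migratory DCs was the same in both libraries, apart from NK and regulatory T cells, which overlapped. Only in melanoma cells and phagocytes did the counting interval of the difference lie above 0, and the phagocyte difference was small.

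Without Hmgb2 the shares were 58.9% and 58.0% in CD8 T cells, 57.9% and 65.1% in melanoma cells, 29.5% and 31.4% in regulatory T cells, 18.6% and 12.6% in NK cells, 13.1% and 15.3% in phagocytes and 6.10% and 5.56% in migratory DCs. NK cells, which had lost most of their share when Hmgb2 was dropped, were now below regulatory T cells. Thinning is random, and in small gates the draw itself moved the value. Averaged over all possible draws, regulatory T cells were at 33.01% ± 2.56 (SD over draws) among control cells and 29.4% ± 1.82 among treated cells, so the sign of that difference depended on the draw. For melanoma cells the averages were 57.1% ± 1.32 and 65.1% ± 1.08, and for phagocytes 13.4% ± 0.402 and 15.5% ± 0.362. Without thinning, at least 3 UMIs of these 32 genes were found in 91.5% and 87.6% of CD8 T cells, 51.5% and 44.5% of phagocytes, 69.3% and 58.0% of regulatory T cells, 53.5% and 35.5% of NK cells, 55.3% and 42.8% of migratory DCs and 98.8% and 99.6% of melanoma cells. Depth per cell differed between the libraries in each of these gates, and the phagocyte difference has the opposite sign without thinning.

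**Figure D2:**
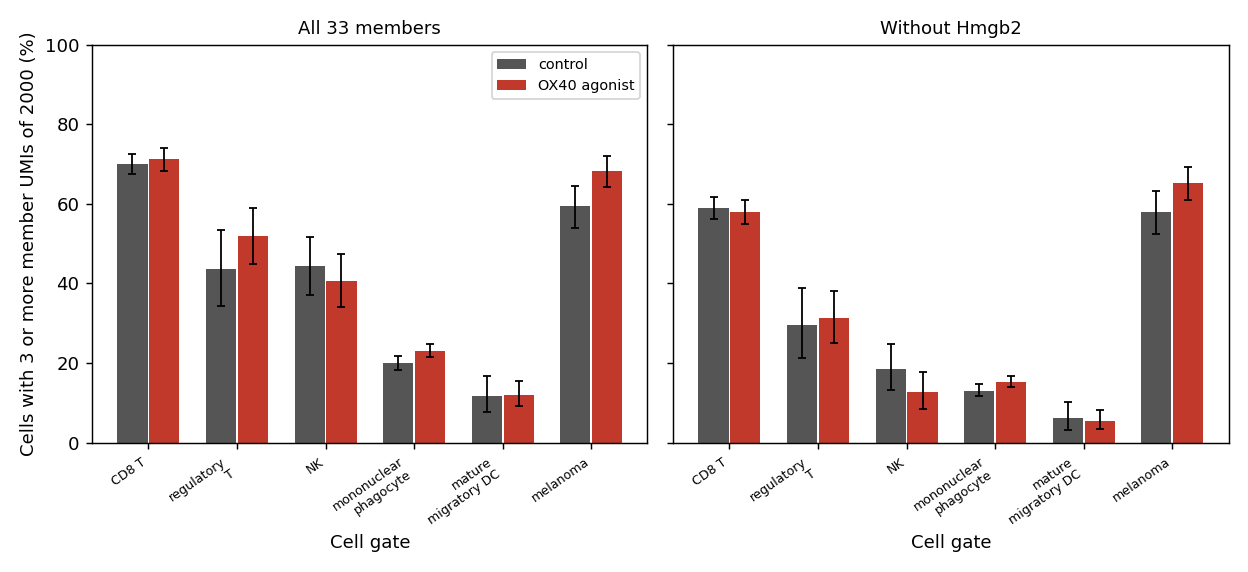
Percentage of cells with at least 3 member UMIs after thinning to 2000 UMIs, by gate and library, with all 33 genes on the left and without Hmgb2 on the right; bars are 1 draw and lines are exact 95% binomial intervals. CD8 T and melanoma cells lie between 57.9 and 71.3% in both panels, and migratory DCs between 5.56 and 12.1%.

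Member-positive cells can also be split by which set they hold more of. Without Hmgb2, S phase UMIs outnumbered mitosis UMIs in 61.1% of member-positive control CD8 T cells and 63.6% of treated ones. The share was higher in NK cells, at 80.6% of 36 control and 78.6% of 28 treated cells, and lower in melanoma cells, at 43.8% and 48.5%. Phagocytes lay near an even split, at 48.9% and 49.9%. Regulatory T cells had 16 of 33 control cells (48.5%) and 43 of 64 treated cells (67.2%) on the S phase side, a difference of 18.7 percentage points with an interval of −1.65 to 37.7. The split depended on depth: without thinning, the S phase side held 74.9% and 75.3% in CD8 T cells, 62.03% and 73.9% in regulatory T cells, 87.7% and 81.7% in NK cells, 71.9% and 72.1% in phagocytes and 64.4% and 65.02% in melanoma cells. By that count phagocytes and melanoma cells also leaned to S phase. Counting Hmgb2 lowered the thinned shares to 35.5% in both libraries for CD8 T cells, to 28.6% and 33.02% for regulatory T cells, and to 27.9% and 24.4% for NK cells.

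Differences between the libraries are given as ratios, treated over control, and as log2 ratios with 10 CPM added to both values. A gene counts as past the fold when that log2 ratio is beyond 0.32 in size and it is at 10 CPM or more in either library. The share of all genes past the fold depends on how many UMIs a gate holds, so it is given for each gate.

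Regulatory T cells showed the widest gap, and it was in the mitosis genes. All 18 were lower in the treated library and past the fold, where 14.5% of 7524 genes were that far below and 11.3% that far above, and their median log2 ratio was −0.77 against −0.02 for all genes. The 15 S phase genes had 5 higher, 10 lower and none past the fold, with a median of −0.09, where 45.9% of all genes were higher. Ube2c (ENSMUSG00000001403, chr2:164769898-164778822, GRCm38), the ubiquitin-conjugating enzyme of the anaphase-promoting complex, was at 408 CPM in control and 115 CPM in treated cells (ratio 0.282, 0.232 to 0.340). Cenpf (ENSMUSG00000026605, chr1:189640606-189688086), a kinetochore protein of late G2, was at 166 and 43.1 CPM (0.259, 0.188 to 0.352). Reep4, which clears endoplasmic reticulum from mitotic chromosomes, was at 73.0 and 21.9 CPM (0.300, 0.188 to 0.468). These 3 genes were thus at 21.9 to 115 CPM in the treated cells, each at 0.300 or less of its control level. Cyclin B1, Ccnb1, which activates Cdk1 at mitotic entry, was at 95.3 and 32.5 CPM, and Top2a, the topoisomerase that untangles sister chromatids, at 354 and 203 CPM. Hmgb2 was nearer to parity, at 1526 and 1201 CPM. Of the S phase genes with most UMIs, Dut was at 280 and 259 CPM, Slbp at 167 and 156 CPM, and Hist1h1b at 161 and 135 CPM.

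**Figure D3:**
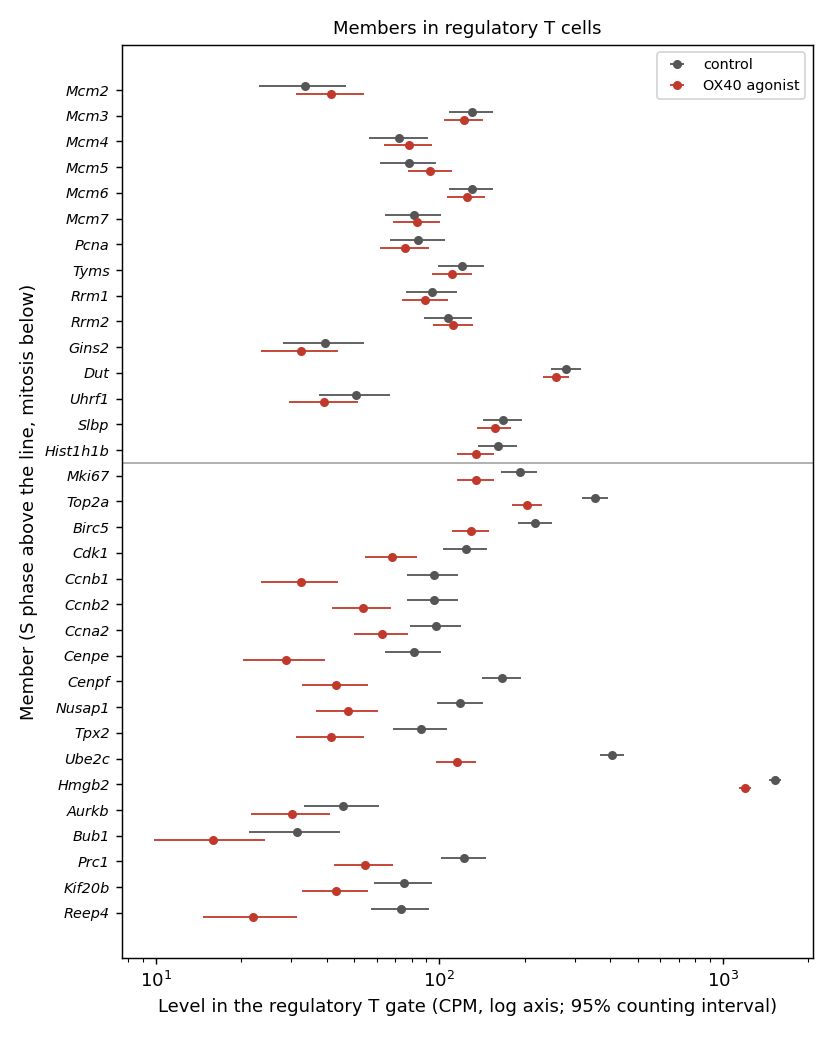
Level of each member in regulatory T cells on a log axis, control in grey and treated in red, with 95% counting intervals. The libraries overlap for the S phase genes above the line, and all 18 mitosis genes below it are lower in the treated library.

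Without Hmgb2, 50% of the mitosis UMIs lay in 5 of 114 control cells (4.39%) and in 8 of 205 treated cells (3.90%). The 5 control cells richest in member UMIs held 38.5% of them and had a median of 28944 UMIs, and the 5 richest treated cells held 26.3% with a median of 26605 UMIs. With the 5 richest cells of each library left out, an alternative added after the values were seen, the 17 mitosis genes were at 1534 and 839 CPM instead of 2383 and 1126, and the ratio was 0.547 instead of 0.472. The S phase ratio was 0.952 (0.892 to 1.02) with all cells and 0.963 without them. At 2000 UMIs per cell and without Hmgb2, 15.2% of control and 8.82% of treated cells held over 10 member UMIs, while 10.7% and 18.1% held 3 to 5. Markers of other cells in this gate summed to 404 and 401 CPM for phagocytes, 247 and 271 CPM for plasmacytoid DCs and 234 and 265 CPM for mature migratory DCs. They were at 148 and 113 CPM for type 2 DCs, 99.4 and 107 CPM for melanoma cells, 16.2 and 27.2 CPM for neutrophils and 5.07 and 15.1 CPM for platelets. The part of these markers in the result was not tested. Cd8a at 0 and the presence of Foxp3, at 340 and 334 CPM, are set by the gate. Median depth was 5874 and 4663 UMIs per cell. With each cell thinned to 2000 UMIs, the ratio of all 18 mitosis genes was 0.755 instead of 0.595, and those of Ube2c and Cenpf were 0.388 each.

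In CD8 T cells the libraries were close, and the mitosis genes differed among themselves. The S phase sum was 2340 CPM in control and 2274 in treated cells (ratio 0.972), and the 17 mitosis genes without Hmgb2 summed to 2238 and 1951 CPM (0.872, 0.859 to 0.885). Past the fold were 4 mitosis genes, all lower in the treated library, where 1.18% of 6950 genes lay that far below; none was above, where 0.662% of genes lay. Cenpe was at 78.2 and 54.7 CPM (ratio 0.6995, 0.640 to 0.764). Prc1, which bundles microtubules of the central spindle, was at 84.5 and 60.7 CPM (0.719, 0.660 to 0.782). Tpx2, a spindle assembly factor that activates Aurora A, was at 108 and 79.3 CPM (0.736, 0.683 to 0.792). Mki67, the proliferation antigen that coats mitotic chromosomes, was at 192 and 145 CPM (0.755, 0.714 to 0.797). Other genes of the same phase were close in the libraries: Ccnb2 was at 111 and 110 CPM, Birc5 (survivin, a subunit of the passenger complex) at 245 and 237 CPM, and Ube2c at 344 and 330 CPM. Hmgb2 was higher in the treated cells, at 1655 and 1806 CPM (1.09, 1.07 to 1.11), and so was Dut, at 562 and 601 CPM. Hist1h1b was at 225 and 188 CPM, Top2a at 378 and 317 CPM, and Slbp at 183 and 176 CPM. Median log2 ratios were −0.06 for S phase and −0.13 for mitosis genes, beside −0.03 for all genes.

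**Figure D4:**
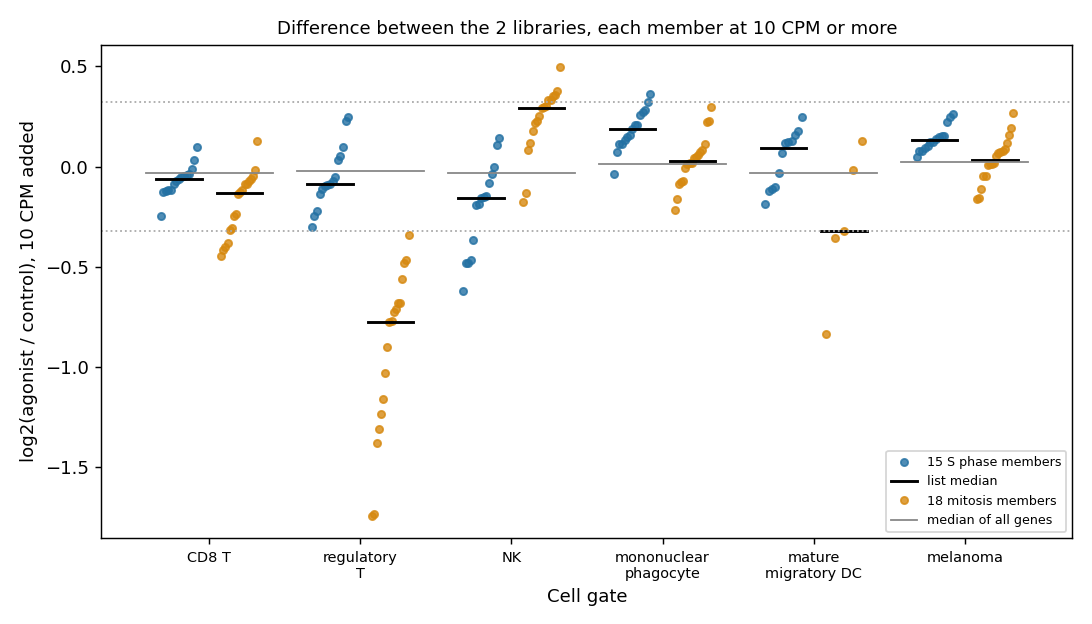
Log2 ratio of treated over control for each member at 10 CPM or more, by gate, with S phase genes in blue and mitosis genes in orange; black bars are list medians, grey lines the median of all genes, and dotted lines the fold of 0.32. Regulatory T cells have all 18 mitosis genes below the lower dotted line, and melanoma cells have no gene past either line.

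Mononuclear phagocytes had the S phase genes higher in the treated library, a difference that was not seen without 1 cluster of cells. The sum was 530.0 CPM in control and 628 CPM in treated cells (ratio 1.18, 1.16 to 1.21). Of the 15 S phase genes 14 were higher, against 54.6% of all genes, with a median log2 ratio of 0.19 beside 0.01. Past the fold were 2 of them, where 2.93% of 6997 genes lay that far above, and none was below, where 3.32% lay. Pcna (ENSMUSG00000027342, chr2:132249162-132253314), the sliding clamp, was at 59.4 and 79.1 CPM (1.33), with counting intervals of 56.5 to 62.3 and 75.8 to 82.4 CPM. Mcm6, a helicase subunit, was at 42.5 and 55.8 CPM (1.31, 1.21 to 1.42). Other replication genes lay higher without reaching the fold, such as Uhrf1 at 19.2 and 25.5 CPM. Mcm3, also of the helicase, was at 53.7 and 60.6 CPM, and Slbp at 64.0 and 71.1 CPM. Mitosis genes had 12 of 18 higher (66.7%, against 54.6% of all genes) and none past the fold, with a median of 0.03. Without Hmgb2 the mitosis genes summed to 574 and 601 CPM (1.05, 1.03 to 1.07). Cdk1, the mitotic kinase, was at 32.5 and 42.2 CPM, whereas Birc5 was at 79.7 and 82.3 CPM, Top2a at 73.1 and 77.9 CPM, and Reep4 at 26.9 and 21.8 CPM. Hmgb2 was at 348 and 352 CPM.

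The makeup of the phagocytes differed between the libraries. When all cells were clustered by expression, cluster 11, the phagocyte cluster of at least 100 cells with the most unequal numbers, held 26 control and 317 treated cells and had an S phase sum of 1075 CPM. Cluster 7, at 248 CPM, held 237 and 446 cells. Of the gated phagocytes, 22 control and 297 treated cells were in cluster 11. With that cluster left out, an alternative added after the values were seen, the S phase sum was 524 CPM in control and 515 CPM in treated phagocytes (ratio 0.982, 0.958 to 1.01). The mitosis sum without Hmgb2 was then 566 and 498 CPM (0.880, 0.859 to 0.902), below control instead of above it. The clusters were formed without the members and without other cell cycle genes. Cluster 11 was picked for its unequal numbers after the values were seen, so this gives values without those cells and no test.

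The members were held by a minority of phagocytes rich in C1q, the complement component of tissue macrophages. In a split chosen after the values were seen, cells with high C1q genes were 54.7% of control and 58.4% of treated phagocytes, and 22.6% and 24.8% of them were member-positive without Hmgb2. Among cells with low C1q and Ly6c2, a gene of classical monocytes, 0.836% of 598 control (0.272 to 1.94) and 1.08% of 648 treated cells (0.435 to 2.21) were. In the C1q-high cells the S phase sum was 671 and 777 CPM (ratio 1.16, 1.13 to 1.19) and the mitosis sum without Hmgb2 was 788 and 779 CPM (0.988). In the Ly6c2-positive cells the S phase sum was 175 and 172 CPM, with a mitosis ratio without Hmgb2 of 1.11 (0.944 to 1.30). Cells low in C1q and negative for Ly6c2 had mitosis sums without Hmgb2 of 96.8 and 137 CPM (1.41, 1.21 to 1.65). With Hmgb2 counted, their mitosis sums were 389 and 394 CPM (1.01, 0.934 to 1.10). The C1q-high cells held 22 control and 292 treated cells of cluster 11, and without them their S phase ratio was 0.992 (0.966 to 1.02) and their mitosis ratio without Hmgb2 0.878.

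Melanoma cells had the replication genes slightly higher in the treated library and no member past the fold, where 0.513% of 7801 genes were that far above and 2.59% that far below. The S phase sum was 1638 and 1811 CPM (ratio 1.11, 1.09 to 1.12). All 14 S phase genes at 10 CPM or more were higher, against 59.2% of all genes, with a median of 0.13 beside 0.02. Mcm3 was at 109 and 133 CPM (1.22, 1.16 to 1.27) and Mcm6 at 92.1 and 111 CPM. Dut was at 272 and 303 CPM, Rrm2 at 264 and 279 CPM, and Tyms, thymidylate synthase, at 146 and 151 CPM. Hmgb2 was at 445 and 538 CPM (1.21, 1.18 to 1.24). The other 17 mitosis genes were level, at 1971 and 1982 CPM (1.01, 0.995 to 1.02): Birc5 was at 288 and 303 CPM and Ube2c at 292 and 295 CPM, while Top2a at 279 and 249 CPM and Prc1 at 96.0 and 84.7 CPM were lower.

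Melanoma cells with high Car9 and Pgf, genes induced by low oxygen, held fewer members in a split also chosen after the values were seen. They made up 14.99% of control and 8.58% of treated melanoma cells. In the control library 23.1% of 52 such cells (12.5 to 36.8) were member-positive without Hmgb2, against 64.1% of 295 others (58.3 to 69.5). In the treated library it was 17.02% of 47 (7.65 to 30.8) against 69.7% of 501 (65.4 to 73.7). The intervals do not overlap within either library. In the cells with low Car9 and Pgf the S phase ratio was 1.07 (1.06 to 1.08), and the mitosis ratio without Hmgb2 was 0.970 (0.959 to 0.981). In those with high Car9 and Pgf the S phase ratio was 1.02 and the mitosis ratio without Hmgb2 1.19 (1.13 to 1.26). The 2 subsets thus lay on opposite sides of 1 for mitosis only when Hmgb2 was left out. With Hmgb2 counted, the mitosis ratio was 1.01 (0.997 to 1.02) with low and 1.19 with high Car9 and Pgf.

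**Figure D5:**
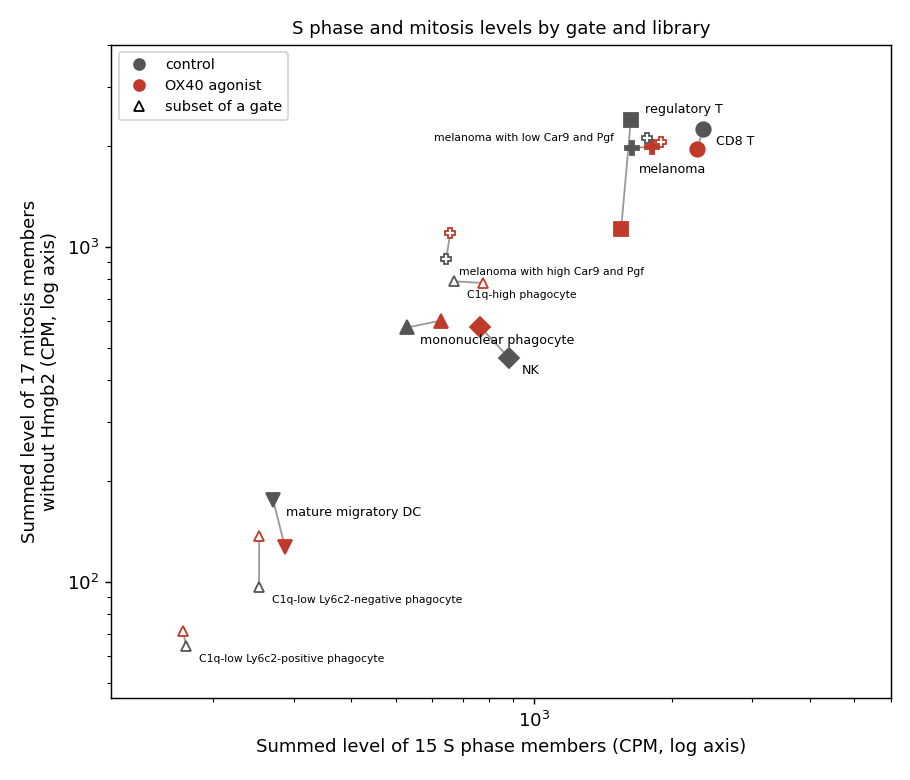
Summed level of the 15 S phase genes against the 17 mitosis genes without Hmgb2, in CPM on log axes; filled symbols are the 6 gates, open symbols subsets of phagocytes and melanoma cells, and grey lines join the control and treated library. Regulatory T cells move down from 2383 to 1126 CPM with little shift along the S phase axis, and Ly6c2-positive phagocytes lie lowest.

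NK cells and migratory DCs held few member UMIs. Among NK cells 13 of 15 S phase genes were lower in the treated library and 5 were past the fold, where 16.0% of 7158 genes lay that far below. Of the 17 mitosis genes at 10 CPM or more, 15 were higher and 6 past the fold, where 11.0% lay that far above. Bub1, the 18th, was under 10 CPM in both. Of all 7158 genes, 3948 were lower and 3210 higher. Median log2 ratios were −0.16 for S phase and 0.29 for mitosis genes, beside −0.03 for all genes. Mcm7, Mcm5 and Mcm4, all helicase subunits, were at 47.1 and 30.9 CPM, 40.1 and 25.9 CPM, and 57.5 and 38.9 CPM, from 26 to 66 UMIs each, and the intervals of their ratios included 1. With cells thinned to 2000 UMIs the Mcm7 ratio was 1.09 instead of 0.656 and the Mcm5 ratio 0.382 instead of 0.646; with stricter gates they were 0.347 and 0.390. Ube2c was at 48.0 and 71.7 CPM (1.496, 1.04 to 2.17), but 1 treated cell held 75.0% of its 72 UMIs. Slbp was at 153 and 144 CPM, Dut at 135 and 121 CPM, Mcm6 at 100.3 and 97.6 CPM, Top2a at 110 and 137 CPM, and Hmgb2 at 752 and 876 CPM. Of the mitosis UMIs without Hmgb2, 50% lay in 4 control and 3 treated cells. Leaving out the 5 richest cells of each library turned the mitosis ratio without Hmgb2 from 1.24 to 0.906 (0.729 to 1.12), while the S phase ratio went from 0.866 to 0.824. T cell markers, 7 genes shared in part by NK cells, summed to 1141 and 981 CPM in this gate, with Cd3e at 0 by its definition. Markers of type 1 DCs summed to 39.2 and 2.99 CPM, with Xcr1 at 13.95 CPM and at 0; their part in the result was not tested.

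Mature migratory DCs carry antigen to lymph nodes. Their S phase sum was 270.2 and 287 CPM (ratio 1.06, 0.958 to 1.18), with none of 12 genes at 10 CPM past the fold, where 4.18% of 6526 genes lay that far above. Only 5 of 18 mitosis genes reached 10 CPM, and 3 of these, Ube2c, Birc5 and Top2a, were past the fold and lower in the treated library, where 7.49% lay that far below. Ube2c was at 34.6 and 15.01 CPM (0.433, 0.298 to 0.626), and 1 control cell held 56.0% of its 75 UMIs. Top2a was at 32.8 and 24.3 CPM (0.740, 0.533 to 1.03). Slbp was at 54.96 and 60.9 CPM, Mcm3 at 31.4 and 28.3 CPM, Mcm6 at 26.8 and 24.3 CPM, and Hmgb2 at 269 and 266 CPM. Without the 5 richest cells of each library the mitosis ratio without Hmgb2 was 1.03 (0.834 to 1.27) instead of 0.722, so the lower mitosis level was not seen without those cells.

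Beyond the members, 83 other cell cycle genes were listed by role. In regulatory T cells 71 were at 10 CPM or more, with 30 past the fold below and 1 above (Cdc45), where 14.5% of all genes lay below and 11.3% above, and a median of −0.22. The spindle and checkpoint groups were lower as well: 6 of 7 mitotic kinases and checkpoint genes, 6 of 7 kinesins and spindle genes and 4 of 5 kinetochore and passenger genes were past the fold and lower, against 2 of 14 replication fork and nucleotide genes, a share near that of all genes. Hmmr, a spindle protein, was at 60.9 and 21.9 CPM, Ncaph, a condensin subunit, at 37.5 and 12.1 CPM, and Cdc20, the activator of the anaphase-promoting complex, at 68.0 and 26.5 CPM. In CD8 T cells 62 of 77 were lower and 2 past the fold, Kif11 (a spindle motor, 71.4 and 53.5 CPM) and Ccnd3 (cyclin D3, 123 and 95.1 CPM). Of all genes in that gate, 4241 of 6950 were lower and 1.18% lay that far below.

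In phagocytes 2 cyclins of G1 were lower in the treated library. Ccnd2, cyclin D2, was at 49.96 CPM in control and 29.7 CPM in treated cells (ratio 0.595), and Ccnd3 at 73.0 and 54.2 CPM (0.743); these were the only 2 of 54 other cell cycle genes past the fold, a share near the 3.32% of all genes that lay that far below. Of the 6 G1/S cyclins and kinases at 10 CPM or more, 4 were higher and 2 lower. In melanoma cells 1 of 75 was past the fold, where 2.59% of all genes lay that far below. It was Cdkn1a, the kinase inhibitor p21, at 206 and 139 CPM (0.673). NK cells had 7 above and 8 below among 51, near the 11.0% and 16.0% of all genes that lay that far above and below, led by Pold1, a polymerase subunit, at 27.03 and 11.96 CPM, Kif11 at 8.72 and 20.9 CPM and Cdca8, of the passenger complex, at 20.1 and 38.9 CPM. Migratory DCs had 1 of 33 past the fold, where 7.49% of all genes lay that far below. It was Cenpa, the centromeric histone, at 57.3 and 43.9 CPM.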

How the data were processed

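Single-cell libraries from 1 control and 1 OX40 agonist group were used. The deposited matrices hold raw UMI counts per gene and barcode. The authors used Cell Ranger with mm10, per the submitters' processing notes, and per the file headers version 3.1.0. Barcodes with at least 500 UMIs, 200 genes and at most 10% mitochondrial UMIs were kept, and those with the highest Scrublet scores (scanpy 1.11.5) were removed at 0.8% per 1000 barcodes (365 control and 514 treated), because the score's automatic threshold marked 0% and had not worked. Cells were gated on marker UMIs per 10000, and the melanoma gate also required at least 5000 UMIs per cell. Gates favour deeper cells, the Foxp3 gate among them, and 1471 control and 1482 treated cells met no gate. Levels are summed UMIs per 1000000 of the gate, with exact Poisson intervals and exact conditional intervals of ratios; shares have Clopper-Pearson intervals. Thinning drew 2000 UMIs per cell without replacement. Named in each gate were up to 4 members past the fold at 20 CPM or more, by size, and the 3 S phase and 3 mitosis members with the most UMIs; other values were chosen after they were seen. Members, lists and rules were chosen with earlier results of these data known. Gene positions come from GENCODE M21 (GRCm38) and promoters from RefSeq. Scripts were tested on simulated data. Alternatives were other filters, gates, clusters (Leiden, resolution 2), depths, cell thresholds and added CPM.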

Additional observations from a re-analysis of the deposited data

How the results depend on the processing

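Values are ratios of treated over control unless stated. With each cell thinned to 2000 UMIs, the S phase ratio was 1.03 in CD8 T cells (reversed from 0.972), 0.769 in NK cells, 1.15 in melanoma cells, 1.12 in phagocytes and 0.890 in regulatory T cells, and the mitosis ratio 0.99976 in CD8 T cells, 1.05 in NK cells, 1.01 in migratory DCs (reversed from 0.883), 1.08 in melanoma cells and 0.755 in regulatory T cells. As means over cells, S phase was 1.14 in melanoma cells and 1.13 in phagocytes, mitosis 1.06 in NK cells, 1.07 in melanoma cells and 0.743 in regulatory T cells, and Ube2c in NK cells 0.872 (reversed from 1.496). With Leiden clusters in place of gates, S phase was 0.771 in NK cells and 1.12 in melanoma cells, and mitosis 1.03 in melanoma cells and 0.677 in regulatory T cells. Stricter gates gave NK cells 0.646 for S phase and 1.02 for mitosis. Without doublet removal, mitosis was 1.09 in NK cells and 1.06 in melanoma cells. Without Hmgb2, mitosis was 0.872 in CD8 T cells, 0.722 in migratory DCs, 1.01 in melanoma cells and 0.472 in regulatory T cells. Without the 5 cells richest in members per library, added after seeing the data, mitosis was 1.03 in NK cells, 1.12 in migratory DCs (reversed), 1.08 in melanoma cells, 1.06 in phagocytes and 0.6997 in regulatory T cells, and Ube2c in NK cells 0.579 (reversed). Without the phagocytes of cluster 11, which was mostly of treated cells, also added after seeing the data, S phase was 0.982 and mitosis 0.930 in phagocytes (both reversed). With 1 CPM added, 17 members were past the fold in NK cells and 6 in phagocytes, against 11 and 2. With 50 CPM added it was 0 in CD8 T cells, 0 in NK cells, 0 in phagocytes and 1 in migratory DCs, against 4, 11, 2 and 3. The difference in the S phase side among member-positive cells, all 33 genes counted, was 6.77 percentage points in CD8 T cells at 1000 UMIs and 7.29 in phagocytes at 4000 UMIs, against −0.0144 and 0.592. The cause of these shifts was not tested. The mitosis ratio of regulatory T cells stayed below 1 under every alternative run. All 60 alternative values of the member-positive difference stayed within its counting interval. Some changed sign within it, such as CD8 T cells from 1.23 to −2.42 percentage points at 1000 UMIs. These 60 leave out the count without thinning. By that count, with all 33 genes, shares were lower in treated cells: 75.2% and 66.5% in phagocytes and 90.4% and 83.9% in regulatory T cells.

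Limits: 1 library per group leaves variation between mice unmeasured, the treated cells were shallower, few cells hold 50% of the mitosis UMIs without Hmgb2 in the small gates, and free RNA adds members to cells that lack them. No paired analysis was possible because each group has 1 library.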

Other observations

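The 6 gates with fewer than 100 cells in a library were left out of the comparisons, and their levels are given as values. In type 1 conventional DCs (56 control and 104 treated cells) the S phase genes summed to 1070 and 865 CPM. Their 17 mitosis genes without Hmgb2 summed to 1161 and 608 CPM (ratio 0.523, 0.481 to 0.569). In type 2 conventional DCs (97 and 131 cells) the S phase sum was 618 and 240 CPM (ratio 0.387, 0.335 to 0.447), from 652 and 277 UMIs. Their mitosis sum without Hmgb2 was 174 and 94.3 CPM (ratio 0.543, 0.425 to 0.692). Conventional CD4 T cells, only 18 and 29 in number, had S phase sums of 1567 and 802 CPM. Their mitosis sums without Hmgb2 were 1267 and 630 CPM (ratio 0.497, 0.381 to 0.647). Plasmacytoid DCs (14 and 32 cells) had S phase sums of 229 and 683 CPM and mitosis sums without Hmgb2 of 51.0 and 278 CPM, higher in the treated library. B or plasma cells (13 and 47) had S phase sums of 1233 and 831 CPM beside mitosis sums without Hmgb2 of 94.9 and 89.4 CPM. Neutrophils (15 and 47) held 3 and 11 S phase UMIs in all.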
